A study of Mus musculus with 9 samples.

Results

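The replication-dependent histone genes were followed in cardiomyocytes of the mouse, the muscle cells that make the heart beat. The members are the protein-coding genes of the mouse GENCODE M21 annotation whose symbols carry the cluster names Hist1 to Hist4, and 67 of the 55487 gene rows in the deposited count table met that rule. They comprised 6 linker histone H1 genes, 18 H2A genes, 18 H2B genes, 12 H3 genes and 13 H4 genes. In the annotation 54 lay in the Hist1 cluster on chromosome 13, 10 in the Hist2 cluster on chromosome 3, 2 in Hist3 on chromosome 11 and 1, Hist4h4, on chromosome 6. RNA was sequenced from isolated cardiomyocytes in 3 groups of 3 libraries. The blank controls (NC) carry no named vector, the negative controls (VC) are tied by the protocol to AAV9-VC, and the overexpression group (OE_LncFirre) is tied to AAV9-Firre, an adeno-associated virus of serotype 9 carrying the long noncoding RNA Firre. The labels give no strain, age, dose, time after infection or promoter, and they call the libraries biological replicates without naming an animal or a culture, so the p-values rest on the spread among these libraries alone, which may be technical. The title of the study names myocardial proliferation, the RNA-binding protein PTBP1 and the Akt pathway.

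Replication-dependent histone genes supply the core histones H2A, H2B, H3 and H4, around which DNA is wound, and H1, which binds the DNA between nucleosomes. They are switched on as cells copy their DNA, through the coactivator NPAT. Their transcripts are known for ending in a short stem-loop bound by SLBP in place of a polyA tail, and for being degraded when DNA synthesis stops. Some of these genes can also give longer transcripts with a polyA tail, a form known from cells that have left the cell cycle. Most heart muscle cells stop dividing soon after birth, and their nucleosomes then take up replacement histones such as H3.3, encoded by H3f3a and H3f3b outside these clusters.

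The stem-loop is shown first because transcripts that end there carry no polyA tail, and the labels name both an rRNA depletion, which would keep such transcripts, and polyA RNA. The 16-base pattern of the histone 3′ stem-loop was searched on the transcript strand of the annotated GENCODE M21 transcripts. It was found in 46 of the 67 members and in 64 of 21901 protein-coding genes, or 0.292%. In the sequences that follow, written with T for U, the capitals mark the paired stem and the small letters the loop.
Hist1h1c, Hist1h1d, Hist1h1e, Hist2h2aa2 and 22 other members: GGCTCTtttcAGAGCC
Hist1h4h and 6 other members: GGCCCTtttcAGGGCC
Hist1h4i and Hist2h4: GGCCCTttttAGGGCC
The annotated transcripts of the other 21 members, among them Hist1h2bc, Hist2h2be and Hist1h1a, did not hold the pattern.

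The promoters of 5 members that the results turn on are shown because some of their motifs recur within a subfamily. The windows are the 150 bases before the RefSeq start site on GRCm38.p6, printed 5′ to 3′ on the gene's strand, with matched motifs in capitals; Hist1h2be has 2 RefSeq windows, of which the 1 with the octamer is shown; the other holds only CCAAT. The motifs searched on both strands were TATAAA for the TATA box, CCAAT for the box of that name, the H1 box AAACACA, the octamer ATTTGCAT and GGTCCG of H4 promoters.
Hist1h1c, chr13:23738657-23738806, plus strand: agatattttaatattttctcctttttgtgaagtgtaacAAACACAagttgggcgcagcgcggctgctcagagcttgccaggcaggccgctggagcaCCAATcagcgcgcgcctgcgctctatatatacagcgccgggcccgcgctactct
Hist1h1d, chr13:23554882-23555031, plus strand: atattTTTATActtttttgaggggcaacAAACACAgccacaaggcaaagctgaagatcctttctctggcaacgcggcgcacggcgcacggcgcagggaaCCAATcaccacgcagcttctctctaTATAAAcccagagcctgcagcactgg
Hist1h1e, chr13:23622559-23622708, minus strand: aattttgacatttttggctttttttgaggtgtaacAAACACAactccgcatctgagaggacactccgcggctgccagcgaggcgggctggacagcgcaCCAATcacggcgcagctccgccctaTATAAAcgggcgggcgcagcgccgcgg
Hist1h2be, chr13:23585971-23586120, minus strand: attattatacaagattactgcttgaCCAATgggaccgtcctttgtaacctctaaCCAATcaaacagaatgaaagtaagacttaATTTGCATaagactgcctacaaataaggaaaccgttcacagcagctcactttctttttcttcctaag
Hist1h4i, chr13:22041363-22041512, minus strand: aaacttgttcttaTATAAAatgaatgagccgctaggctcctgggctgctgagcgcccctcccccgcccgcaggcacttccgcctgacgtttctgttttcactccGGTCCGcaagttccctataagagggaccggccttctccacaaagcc
Over 62 windows of 61 members, CCAAT stood in 51, against 24.5% of 32851 windows of all genes. It stood in 6 of 6 H1, 17 of 17 H2A, 17 of 17 H2B and 8 of 10 H3 windows, but in only 3 of 12 H4 windows. Some windows of neighbouring H2A and H2B genes overlap, so the same site can count for both. TATAAA stood in 24, against 7.57% of all windows. TATAAA occurred in every subfamily. The H1 box was in 5 of the 6 H1 windows, 1 H2A window and 2 H2B windows, and in 3.53% of all windows. The octamer was in 5 of 17 H2A and 6 of 17 H2B windows and in 0.998% of all, and GGTCCG was in 9 of 12 H4 windows, 1 H2B and 1 H3 window, and in 4.42% of all. A match is a description of the letters, and binding was not measured.

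Between 15591542 and 22697016 counts per library were assigned to genes. The members held 2849 to 3837 of these in the 6 control libraries and 6273 to 7831 in the 3 Firre libraries, so most of them were measured thinly. In 3 members (Hist1h2aa, Hist2h2aa1 and Hist2h3c1) no count was found in any library, 20 averaged under 1 count per library and 50 averaged under 10. The low-count filter left 19 members, which is not a fair sample of the 67, since a member could pass through a high level in a single group. The 13 members described by name averaged 20 counts or more over the 9 libraries, from 20.2 for Hist1h2ac upward, and the next, Hist1h2bq, averaged 16. That mean includes the Firre libraries, and some members reached it through them. Hist2h4 held 4 to 12 counts in each control library and 51 to 63 in each Firre library. Hist1h2ac held 7 to 15 and 35 to 42. Firre, the targeted gene, stood at 34.0, 37.1 and 30.2 CPM (the usual scaling to library size, here with TMM factors) in the blank controls, 32.5, 34.4 and 32.7 in the negative controls and 62.8, 69.6 and 62.5 in the Firre libraries. Reads of the endogenous gene and of the vector cannot be told apart.

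The summed level of all 67 members was 182 ± 11.8 CPM in the blank controls, 183 ± 3.16 in the negative controls and 334 ± 16.5 in the Firre libraries (SD, n = 3 each). The Firre libraries stood at 323, 353 and 327 CPM, all above the highest control library at 194 CPM. The ratio of the Firre mean to the negative-control mean was 1.82. Hist1h1c and Hist1h2bc together held 87.6% of the members' counts in the negative controls and 81.1% in the Firre libraries. Without them the summed level was 22.7 ± 1.47 CPM in the negative controls and 63.1 ± 3.13 in the Firre libraries, a ratio of 2.78. In bulk RNA, fewer cells of a type and less RNA per cell cannot be told apart, and this holds for every level given here.

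**Figure D1:**
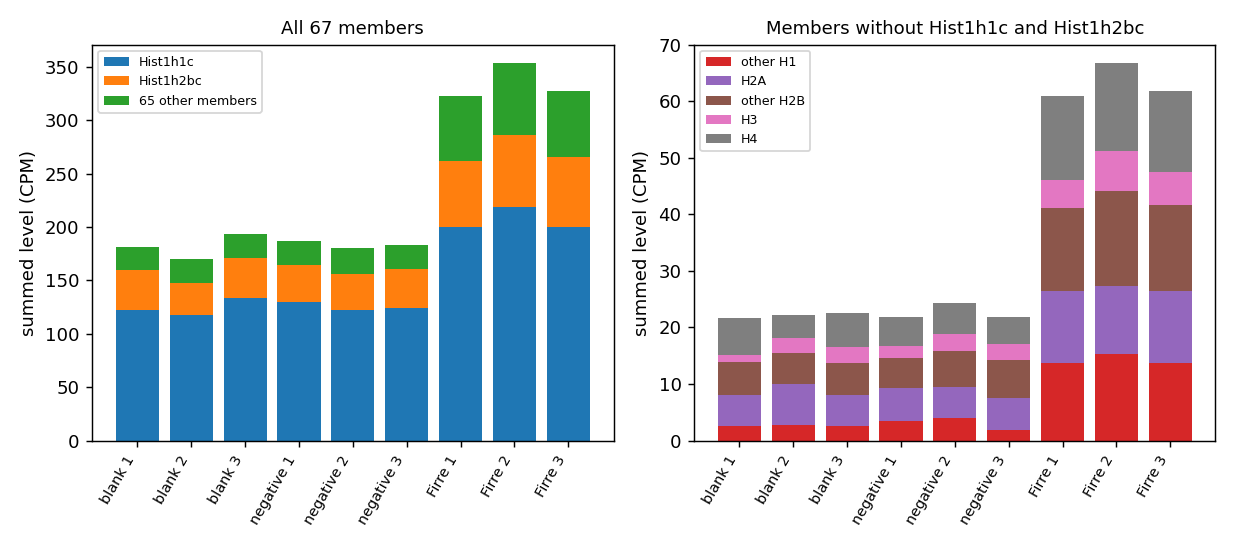
Summed level in CPM per library, as stacked bars, for all 67 members (left) and for the 65 members other than Hist1h1c and Hist1h2bc by subfamily (right). The 3 Firre libraries sum to 323 to 353 CPM and the 6 control libraries to 170 to 194 CPM.

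Of the 19 members tested, 17 were higher in the Firre libraries than in the negative controls and 0 were lower (edgeR quasi-likelihood F test, Benjamini-Hochberg adjusted over 15633 genes, threshold 0.05). Over all genes tested 27.5% were called higher and 28.4% lower. None of the 19 was lower at an unadjusted p under 0.05, and DESeq2 called 17 higher and 0 lower. The 2 members not called, named here after their values were seen, were Hist1h2bg (log2 fold change 0.81, adjusted p = 0.0628) and Hist1h2bh (0.48, adjusted p = 0.372). Among the 10 members with at least 1 CPM in the negative controls, a choice that does not use the Firre libraries, 10 were called higher, against 28.8% of all genes with that level. The median log2 fold change of the 19 was 1.33, with a range from 0.48 to 3.06, and the median of all genes tested was 0.0002. When the filter was applied to the 6 control libraries alone, 15 members passed, of which 13 were called higher, 0 lower and 2 not called, against 27.4% called higher among all genes passing that filter. The median log2 fold change of the 15 was 1.29, with a range from 0.48 to 2.47, and that of all genes passing was -0.01. The other 4 (Hist1h1a, Hist1h2bq, Hist1h3d and Hist1h4n) reached the test only through their counts in the Firre libraries, so their calls follow in part from the filter.

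**Figure D2:**
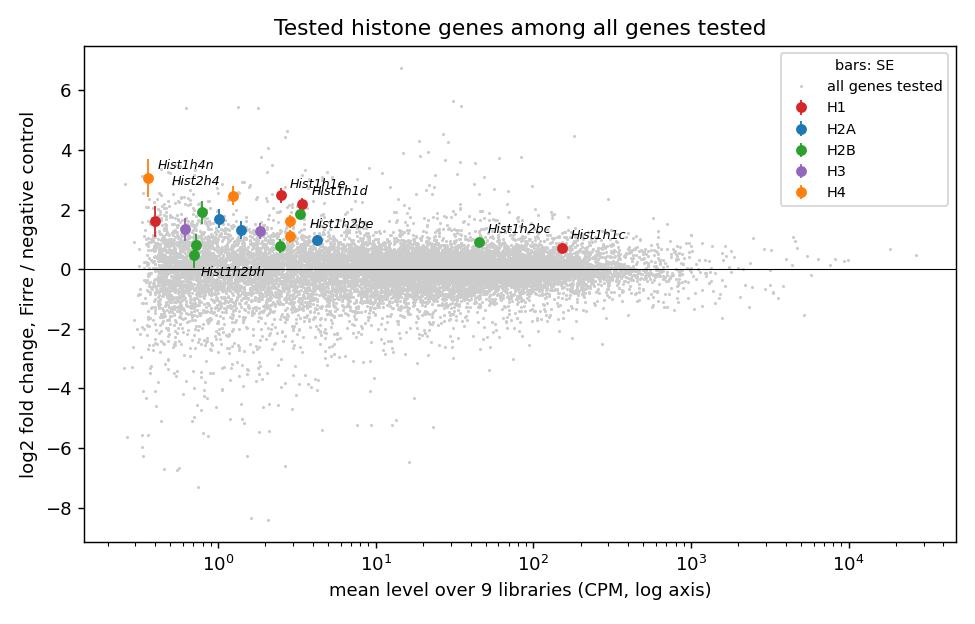
Log2 fold change of the Firre libraries over the negative controls against mean level over the 9 libraries (CPM, log axis), for 15633 tested genes in grey and the 19 tested members in colour by subfamily, with bars of 1 SE. All 19 members lie above 0, from 0.48 for Hist1h2bh to 3.06 for Hist1h4n. Hist1h4n reached the test only through its counts in the Firre libraries.

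Linker histone H1 genes gave the most abundant member and some of the largest changes. Hist1h1c (chr13:23738808-23740367), which encodes H1.2, stood at 122, 118 and 134 CPM in the blank controls, 130, 122 and 124 in the negative controls and 200, 218 and 200 in the Firre libraries. The Firre libraries did not overlap the controls, and the log2 fold change over the negative controls was 0.72 (SE 0.05, adjusted p = 1.13e-12 by edgeR). Per kilobase of merged exon it was at 80.5 CPM in the negative controls, followed by Hist1h2bc at 30.3, Hist2h2aa2 at 6.11 and Hist1h4h at 4.46 CPM per kilobase. Hist1h1d, whose annotated exons are long, had the lowest level per kilobase of the 13 named members, at 0.21.

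Hist1h1d (chr13:23553262-23560686), the H1.3 gene, stood at 1.21, 1.61 and 1.43 CPM in the blank controls, 1.69, 2.12 and 0.969 in the negative controls and 6.62, 8.165 and 7.095 in the Firre libraries. Its lowest Firre library was above every control library, and it rose by a log2 fold change of 2.18 (SE 0.21, adjusted p = 2.66e-10 by edgeR). Hist1h1e (chr13:23620629-23622558), the H1.4 gene, stood at 1.08, 0.974 and 0.571 CPM in the blank controls, 1.23, 1.22 and 0.561 in the negative controls and 5.61, 5.77 and 5.48 in the Firre libraries. The rise of Hist1h1e was 2.47 (SE 0.25, adjusted p = 5.56e-10 by edgeR), again without overlap. Its gene model overlaps that of Hist1h2be on the same strand, and 19.5% of its 150-base windows fall on annotated exons of other genes, where counting can set reads aside. Of the H1 genes, the 3 that passed the filter in the controls alone were called higher. Counts of H1 genes other than Hist1h1c made up 2.35 ± 0.85% of H1 counts in the negative controls and 6.47 ± 0.0933% in the Firre libraries (SD, n = 3). These shares did not overlap between groups, and no test was made of the difference between members.

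Among H2A genes, 3 passed the filter in the controls alone and all 3 were called higher. Hist2h2aa2 (chr3:96239749-96240276) stood at 3.19, 4.43 and 2.23 CPM in the blank controls, 3.44, 3.38 and 2.86 in the negative controls and 5.97, 6.45 and 6.57 in the Firre libraries. It was higher by 0.97 log2 units (SE 0.19, adjusted p = 5.06e-05 by edgeR). All of its sequence recurs in other annotated transcripts, among them those of the copy Hist2h2aa1, listed at 0 counts, so its value may belong to the pair. Hist3h2a, on chromosome 11 next to Trim17, went from 0.875 ± 0.0973 CPM in the negative controls to 2.19 ± 0.455 in the Firre libraries, a log2 fold change of 1.32 (SE 0.29, adjusted p = 0.000319 by edgeR). Trim17 overlaps 28.04% of its windows on the same strand. Hist1h2ac went from 0.598 ± 0.144 to 1.95 ± 0.156 CPM, a log2 fold change of 1.70 (SE 0.32, adjusted p = 4.71e-05 by edgeR).

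Of the H2B genes, 5 passed the filter in the controls alone and 3 of them were called higher. Hist1h2bc (chr13:23684199-23692908), next to Hist1h2ac, stood at 38.1, 30.3 and 37.2 CPM in the blank controls, 34.7, 33.5 and 37.0 in the negative controls and 61.5, 68.1 and 65.8 in the Firre libraries. The groups did not overlap, and the log2 fold change was 0.90 (SE 0.07, adjusted p = 1e-11 by edgeR). Other transcripts shared 17.4% of its windows. Hist1h2be (chr13:23583670-23621124) stood at 1.98, 1.41 and 1.66 CPM in the blank controls, 1.54, 1.83 and 1.99 in the negative controls and 5.81, 7.40 and 6.37 in the Firre libraries. Its log2 fold change was 1.87 (SE 0.19, adjusted p = 1.21e-09 by edgeR).
Hist2h2be on chromosome 3, whose annotated transcript lacks the stem-loop, went from 1.92 ± 0.353 CPM in the negative controls to 3.31 ± 0.728 in the Firre libraries. It rose by 0.78 (SE 0.22, adjusted p = 0.00416 by edgeR). Against the blank controls its log2 fold change was 0.60 (adjusted p = 0.0253 by edgeR), and that call was lost when blank control 2, blank control 3, Firre library 1 or Firre library 3 was left out (adjusted p = 0.0578, 0.0609, 0.0666 and 0.134).

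The H3 genes were the thinnest subfamily, with 124 to 368 counts per group over 12 genes. Hist2h3c2 (chr3:96238108-96239127) stood at 0.702, 1.46 and 1.83 CPM in the blank controls, 0.976, 1.46 and 1.22 in the negative controls and 2.58, 3.29 and 3.13 in the Firre libraries. All Firre libraries were above all controls, with a log2 fold change of 1.29 (SE 0.27, adjusted p = 0.000167 by edgeR). Other transcripts shared 59.4% of its windows. It was the 1 H3 gene that passed the filter in the controls alone.

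H4 had the largest summed ratio over the negative controls among the whole subfamilies. Its 13 genes went from 5.14 ± 0.364 CPM in the negative controls to 14.9 ± 0.588 in the Firre libraries, a ratio of 2.89, beside 1.71 for H1, 2.18 for H2A, 1.96 for H2B and 2.19 for H3. The H1 and H2B ratios follow Hist1h1c and Hist1h2bc, and without these they were 4.72 and 2.55. Over the blank controls H4 and H3 were close, with ratios of 2.71 for H4, 2.66 for H3, 2.06 for H2A, 1.97 for H2B and 1.73 for H1. The ratios were not tested against each other. Hist1h4h (chr13:23531050-23531519) stood at 2.17, 1.46 and 2.40 CPM in the blank controls, 2.46, 2.44 and 1.38 in the negative controls and 4.65, 4.51 and 4.44 in the Firre libraries, a log2 fold change of 1.11 (SE 0.22, adjusted p = 8.34e-05 by edgeR). Hist1h4i (chr13:22040636-22041362) stood at 2.68, 1.46 and 2.34 CPM in the blank controls, 1.13, 1.598 and 2.09 in the negative controls and 5.21, 4.601 and 4.85 in the Firre libraries, a rise of 1.60 (SE 0.23, adjusted p = 6.47e-07 by edgeR). Hist2h4 (chr3:96261682-96263311) was low in the controls, at 0.255, 0.536 and 0.571 CPM in the blank and 0.513, 0.564 and 0.408 in the negative controls, and stood at 2.58, 2.84 and 2.92 in the Firre libraries. Its log2 fold change was 2.47 (SE 0.32, adjusted p = 9.67e-08 by edgeR). None of these 3 genes overlapped between the Firre libraries and either control, and they were the 3 H4 genes that passed the filter in the controls alone.

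**Figure D3:**
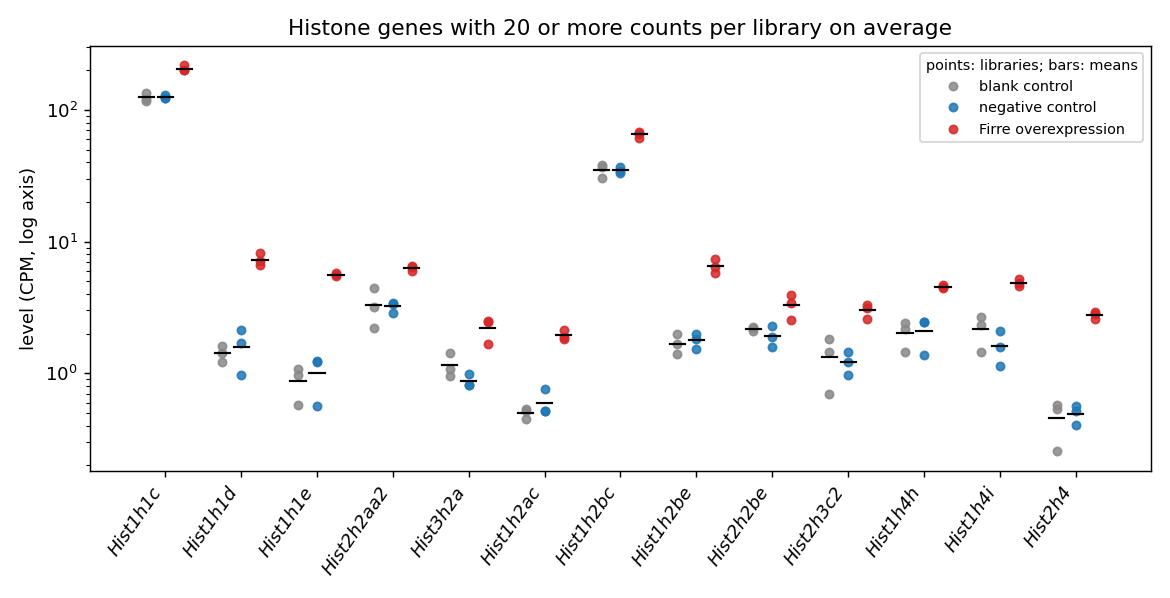
Level in CPM (log axis) of the 13 members with at least 20 counts per library on average; each point is a library, the short bars are group means, and colours mark the 3 groups. For all 13 genes the 3 Firre libraries lie above the 6 control libraries. The average used to choose them includes the Firre libraries, so for some genes the choice itself favoured high Firre levels.

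The 48 members that were not tested held 51 to 79 counts together in each control library and 154 to 193 in each Firre library. Their summed level was 3.73 ± 0.243 CPM in the negative controls and 8.19 ± 0.455 in the Firre libraries, a ratio of 2.20. Among the 19 tested members, the Firre libraries lay wholly above the negative controls in 18 and wholly below in 0. Among all genes tested the shares were 30.8% above and 31.5% below. Over all 67 members they lay above in 32 and below in 1 (Hist1h2ag, named after its values were seen). No share was taken over untested genes of the whole annotation, so the untested members have no background here. For 14 of the 48 untested members the Firre libraries lay above, and for 33 the groups overlapped or were equal, so single genes could not be resolved at this depth.

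Against the blank controls, which share the Firre libraries with the comparison above, 18 of 19 tested members were called higher and 0 lower, where 27.3% of all genes were called higher and 28.9% lower (edgeR, adjusted p under the same threshold). None was lower at an unadjusted p under 0.05, and DESeq2 likewise called 18 higher and 0 lower. Hist1h1a, Hist1h2bq, Hist1h3d and Hist1h4n reached the test only through their counts in the Firre libraries. Their calls here thus follow in part from the filter. Of the 15 members that passed the filter in the control libraries alone, 14 were called higher over the blank controls by edgeR. No share of all genes passing that filter was taken for this comparison. The Firre libraries lay above the blank controls in 18 of the 19 tested members, against 29.5% of all genes tested. Over all 67 members they lay above in 32. That count has no background here, as no share was taken over untested genes. The 13 named members were called higher here too, at log2 fold changes from 0.60 for Hist2h2be to 2.68 for Hist1h1e. Hist1h1c was higher by 0.73 (SE 0.05), Hist1h2bc by 0.89 (SE 0.07), Hist1h1d by 2.35 (SE 0.22) and Hist2h4 by 2.57 (SE 0.33).

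Between the negative and the blank controls 0 of 19 tested members were called by edgeR or by DESeq2, and 1 had an unadjusted p under 0.05 by edgeR. That member, Hist1h3d, named after its values were seen, was at 9 counts over the blank and 29 over the negative controls (log2 fold change 1.48, SE 0.56, adjusted p = 0.45). Over all genes 0.0576% were called. Log2 fold changes of the 13 named members lay between -0.40 for Hist1h4i and 0.25 for Hist1h2ac. For Hist1h1c the value was 0.01 (SE 0.05), for Hist1h1d 0.16 (SE 0.26) and for Hist2h4 0.10 (SE 0.42), so that the low genes left room for sizeable differences. The ratio of the summed levels was 1.01.

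The members with the most counts tended to be those annotated with a long transcript beyond the stem-loop. Of the 46 members with a stem-loop, 23 were annotated with at least 100 bases after it. Their median was 12.6 counts per library and 9 of them were among the 13 named. The other 23 ended within 100 bases of it, with a median of 1.67 counts, and 2 of them (Hist2h2aa2 and Hist1h4h) were named. The 21 members without the pattern had a median of 1.56 counts, and Hist1h2bc and Hist2h2be were named. Hist1h1d was annotated for 4884 bases past the stem-loop, Hist1h2ac for 2010, Hist1h2be for 1861, Hist2h4 for 1257, Hist1h1e for 1153 and Hist1h1c for 840. Hist1h4h ended 46 and Hist2h2aa2 35 bases after it.
The same 3 classes differed in size and in sequence shared with other genes. Median merged exon length was 1249 bases in the first, 485 in the second and 405 in the third class. The median share of windows found in transcripts of other genes that do not overlap the member was 2.35%, 32.7% and 34.9%. Longer exons collect more reads, and reads that align equally to several copies were listed apart from the gene counts, so the parts of these 3 features in the counts cannot be told apart. Per kilobase of exon the medians in the negative controls were 0.241, 0.157 and 0.123 CPM. In the Firre libraries the summed level was 1.79 times that of the negative controls in the first class, 2.23 times in the second and 1.88 times in the third. Hist1h1c held most of the first class and Hist1h2bc most of the third. Without them the ratios were 3.34 in the first and 2.07 in the third class, so the order of the classes rests on these 2 genes.

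**Figure D4:**
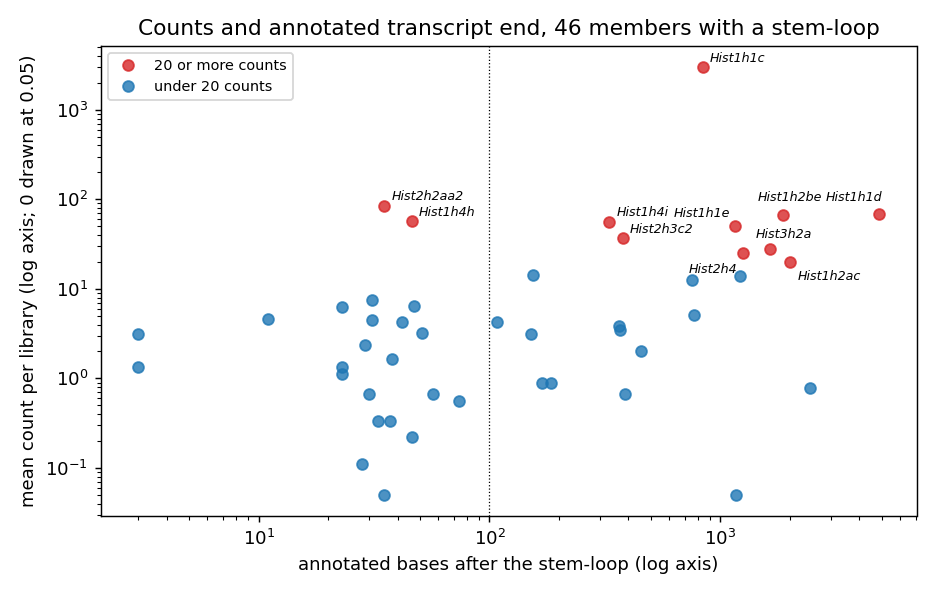
Mean count per library (log axis, 0 drawn at 0.05) against annotated bases after the stem-loop (log axis) for the 46 members with a stem-loop; the dotted line marks 100 bases. To its right lie 9 of the 11 members with at least 20 counts on average, and Hist2h2aa2 and Hist1h4h lie to its left.

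Reads that did not align uniquely made up 7.44% to 7.98% of all counts in the blank controls, 7.06% to 7.34% in the negative controls and 7.79% to 8.21% in the Firre libraries, and ambiguous reads 2.89% to 3.21%, 2.85% to 3.12% and 3.20% to 3.45%. For both, the Firre libraries lay above all negative controls and overlapped the blank controls. They name no gene, and how many came from histone genes was not tested. The named members with no window in transcripts of genes that do not overlap them were Hist1h1c, Hist1h1d, Hist1h1e, Hist2h4, Hist2h2be and Hist3h2a. Among these, Hist1h1e and Hist3h2a had 19.5% and 28.04% of their windows on exons of overlapping genes, and the rest had none. Each was called higher over the negative controls, where 27.5% of all genes tested were. All 13 named members were called higher, and their choice used the Firre libraries, so these calls do not set the genes without shared windows apart. Of 40 genes on a list of other RNAs without a polyA tail, such as 7SK, RNase P and small nuclear RNAs, 3 were tested (Rn7sk, Malat1 and Neat1). Whether the counted transcripts of these 3 lacked a tail was not measured. By edgeR 0 of these 3 were called, 0 had an unadjusted p under 0.05, and DESeq2 called 0. Neat1 was called lower when libraries were scaled by their totals, at -0.15 over either control (adjusted p = 0.0141 over the negative and 0.0126 over the blank controls by edgeR). At 23 of the 40, among them Rmrp, Rpph1, Terc and Rnu7, 0 counts were listed in every library. Rn7sk stood at 1.76 ± 0.75, 2.71 ± 1.197 and 2.09 ± 0.774 CPM in the blank, negative and Firre groups.

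Replacement histones were not called higher. Of 12 tested genes for variant and replacement histones, 0 were called higher and 7 lower in the Firre libraries than in the negative controls by edgeR, against 27.5% and 28.4% of all genes, at a median log2 fold change of -0.24. None was higher at an unadjusted p under 0.05 or by DESeq2. H3f3b, 1 of the genes for H3.3, fell from 208 ± 8.72 to 148 ± 2.95 CPM, a log2 fold change of -0.49 (SE 0.05, adjusted p = 7.19e-10 by edgeR). H3f3a, the other H3.3 gene, went from 201 ± 6.64 to 213 ± 0.41 CPM and was not called (0.08, SE 0.05, adjusted p = 0.138 by edgeR). H2afz, encoding H2A.Z, which marks promoters, fell from 114 ± 6.44 to 77.5 ± 3.89 CPM (-0.56, SE 0.06, adjusted p = 1.34e-09 by edgeR). H2afx, whose product is phosphorylated at DNA breaks, changed by -0.46 (SE 0.06, adjusted p = 3.92e-07 by edgeR).

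Factors that make or process histone transcripts were called about as often as other genes. Of 38 tested, 9 (23.7%) were called higher and 11 (28.9%) lower, against 27.5% and 28.4% of all genes, at a median of -0.01. The smallest p-values were those of Cdk9, the kinase of the elongation factor P-TEFb (-0.55, SE 0.06, adjusted p = 1.95e-08 by edgeR), Cstf3, a cleavage factor subunit (0.51, SE 0.08, adjusted p = 2.64e-06 by edgeR), and Cdk2, which phosphorylates NPAT at the start of S phase (-0.38, SE 0.07, adjusted p = 2.28e-05 by edgeR). Slbp went from 20.01 ± 0.198 to 18 ± 0.686 CPM (-0.15, SE 0.08, adjusted p = 0.116 by edgeR) and Npat from 34.2 ± 3.57 to 30.2 ± 3.17 CPM (-0.18, SE 0.08, adjusted p = 0.0667 by edgeR), and neither was called. Slbp was called lower over the blank controls (-0.31, adjusted p = 0.00174 by edgeR) and, with library totals, over the negative controls (-0.21, adjusted p = 0.0316). Npat was called lower over the negative controls under 4 alternatives: library totals (adjusted p = 0.0179), no low-count filter (0.0487), without Firre library 3 (0.0473) and without negative control 1 (0.0123). Among 30 histone chaperones 7 (23.3%) were called higher and 14 (46.7%) lower, against the same shares of all genes, at a median of -0.14. Those with the smallest p-values were Mcm2, a helicase subunit that also binds H3 and H4 (-0.77, SE 0.07, adjusted p = 6.83e-11 by edgeR), and the chromatin assembly factor subunits Chaf1b (-1.10, SE 0.12, adjusted p = 2.69e-09 by edgeR) and Chaf1a (-0.70, SE 0.08, adjusted p = 1.9e-08 by edgeR).

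Most of the listed genes of DNA replication were lower in the Firre libraries. Of 52 tested S-phase genes, 42 were called lower, 0 higher and 10 not called by edgeR, at a median of -0.59 and up to 0.33, where 28.4% of all genes were called lower. None was higher at an unadjusted p under 0.05, and DESeq2 called 40 lower and 0 higher. Tyms, which makes thymidylate, went from 39.1 ± 4.18 to 19.3 ± 0.663 CPM (-1.02, SE 0.08, adjusted p = 1.6e-12 by edgeR). Uhrf1, which keeps DNA methylation through replication, changed by -0.89 (SE 0.07, adjusted p = 2.74e-12 by edgeR), and Rrm1, a ribonucleotide reductase subunit, by -0.69 (SE 0.05, adjusted p = 3.62e-12 by edgeR).

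**Figure D5:**
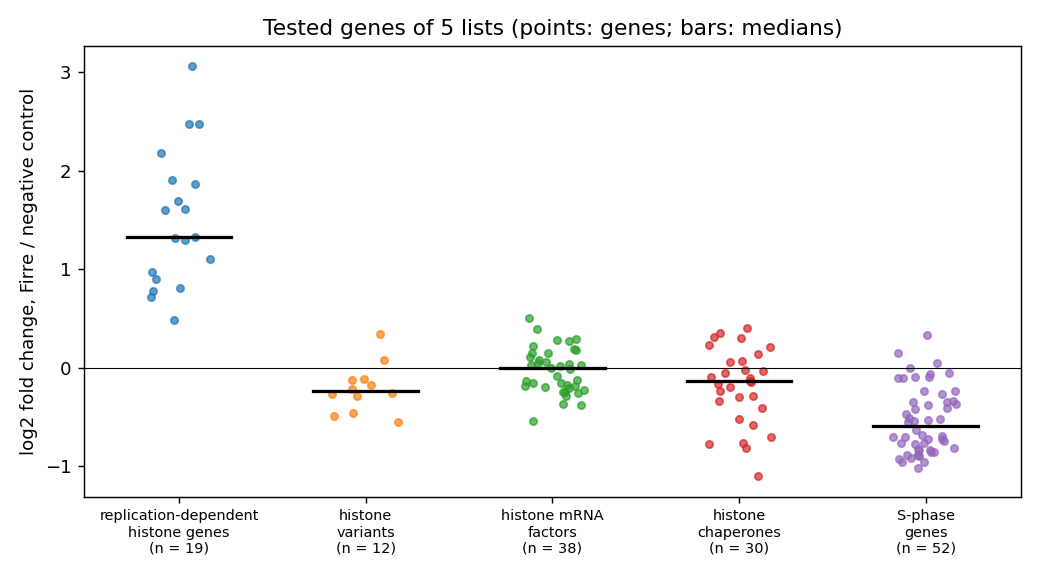
Log2 fold change of the Firre libraries over the negative controls for each tested gene of 5 lists (points), with list medians (bars). The medians are 1.33 for the 19 tested members, -0.24 for histone variants, -0.01 for histone mRNA factors, -0.14 for chaperones and -0.59 for S-phase genes. The 19 include 4 that reached the test only through the Firre libraries. The 15 that passed the filter in the controls alone had a median of 1.29.

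Cell type markers moved together with these changes. The calls are those of edgeR against the negative controls, where 27.5% of all genes were called higher and 28.4% lower. Of the cardiomyocyte markers, 10 of 10 were called higher. Their summed level was 34098 to 36838 CPM in the negative controls and 53439 to 56274 in the Firre libraries. Of the fibroblast markers 10 of 10 were lower (9781 to 9983 against 4488 to 5029 CPM), of the macrophage markers 10 of 10 (86.0 to 96.6 against 13.8 to 16.9 CPM), of the endothelial markers 10 of 10 (1473 to 1487 against 630.5 to 658.4 CPM) and of the epicardial markers 8 of 8 (400.005 to 418.4 against 113.6 to 119.8 CPM). Of 8 smooth muscle and pericyte markers 7 were lower and 1 higher (2900 to 3283 against 1503 to 1645 CPM). Of 8 lymphocyte markers 1 was tested and not called, Cd3d was at 0, and the sums were 1.18 to 1.74 against 1.13 to 1.88 CPM. All listed fibroblast, macrophage, endothelial, smooth muscle, pericyte and epicardial markers passed the low-count filter. The fibroblast markers summed to at least 4488 CPM in every library, so RNA of more than cardiomyocytes was probably present. The share of each cell type was not measured. Counts of mitochondrially encoded genes made up 6.23% to 6.80% of assigned counts in the blank controls, 5.89% to 6.62% in the negative controls and 7.07% to 8.07% in the Firre libraries, without overlap between the Firre libraries and the controls. The part of these shifts in the change of the histone genes was not tested.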

How the data were processed

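The authors deposited 1 table of unnormalized counts, with a row for each Ensembl gene and a column for each of 9 libraries. The submitters' processing notes list the build mm10 and the programs featureCounts, STAR, Trimmomatic and FastQC; their versions, parameters and strand setting are not stated there. The closing lines of the table are named as HTSeq names them. These 5 lines, 16.3% to 17.4% of counts per library, name no gene and were left out. Of 55487 identifiers 55227 matched GENCODE M21, and 66 of 67 members matched a RefSeq gene.

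Groups came from the titles. All libraries entered 1 fit with edgeR 4.0.16 (R 4.3.3): quasi-likelihood F test, TMM, filterByExpr with minimum count 10 and total 15, robust, no covariates, 6 residual degrees of freedom, 15633 genes, Benjamini-Hochberg adjustment, threshold 0.05. The script was tested on simulated data. DESeq2 1.42.0 was an alternative, with other scalings, filters and single libraries left out. Library pairs within a group differed beyond sampling noise (chi-square per degree of freedom 3.27 to 7.40) and were kept apart. The labels name no batch, so batch and group cannot be told apart.

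Shared sequence is the percentage of 150-base windows of a gene's annotated transcripts found in transcripts of genes that do not overlap it. Windows on exons of overlapping genes are given apart. A genome was not used here. CPM use TMM-scaled library sizes. Members averaging 20 counts or more, the 3 genes of smallest p in each related list, and Slbp, Npat, H2afz, H3f3b and Firre are named. The members, lists and rules were chosen with earlier results of these data known.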

Additional observations from a re-analysis of the deposited data

Results flagged for a closer look

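A pair of histone pseudogenes outside the rule gave signal in the Firre libraries above every control library. Hist1h2al, annotated as a processed pseudogene, had a lowest Firre library of 7.83 CPM, with group means of 6.90 ± 0.109, 6.81 ± 0.194 and 9.002 ± 1.14 CPM in the blank, negative and Firre groups (SD, n = 3; log2 fold change over the negative controls 0.40, SE 0.13, adjusted p = 0.00797 by edgeR). Hist3h2bb-ps had 11 counts in all and a lowest Firre library of 0.101 CPM, so its levels rest on very few reads. Among all genes tested, the Firre libraries lay wholly above the negative controls in 30.8% and above the blank controls in 29.5%. The pair was named after its values were seen.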

How the results depend on the processing

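Members called higher over the negative controls numbered 17; the count was 17 with DESeq2, with DESeq2 size factors, with library totals and with only the 2 groups compared, 13 of 13 with a filter at a mean of 1 CPM, 20 of 64 without a filter, 16 to 19 with 1 library left out, and 13 of the 15 members that pass the filter in the controls alone, a count added after seeing the data. Over the blank controls the 18 became 13, 25 and 16 to 20 in the same order for the filters and left-out libraries. Same-numbered libraries did not deviate together (correlations -0.04 to 0.03). With the replicate number as a block the counts of members were 17 and 18, and 4208 genes were higher and 4384 lower over the negative controls, against 4306 and 4441 without it. Library totals gave 3685 higher and 5050 lower genes. Library totals also gained lower calls for Slbp, Npat and Neat1. The summed ratio without Hist1h1c and Hist1h2bc, chosen after seeing the data, was 2.78 over the negative and 2.86 over the blank controls. Between the controls, 1 gene was higher and 8 lower; DESeq2 gave 7 and 13, no filter 31 and 67, library totals and the 1 CPM filter 5 lower each, only the 2 groups 0 higher, and leaving out a library 0 to 23 higher and 0 to 32 lower, both maxima without blank control 2. Of the named members' changes in the Firre libraries, 412 of 416 alternative values kept direction and call, the exceptions being those of Hist2h2be. Some differences turned sign, none of them called, and not all were near 0. In the main fit Rn7sk was at -0.39 over the negative and 0.25 over the blank controls. Malat1 over the negative controls was -0.021 with library totals; with single libraries left out it ranged from -0.026 to 0.07 there and from -0.049 to 0.14 over the blank controls, and Rn7sk from -0.73 to 0.043 and from -0.085 to 0.65. Between the controls Hist1h2bc turned from -0.0025 to 0.0028 with DESeq2 size factors, 0.0019 with DESeq2, 0.0029 with library totals, 0.0035 with the 1 CPM filter and 0.0013 with only the 2 groups. With a library left out the ranges were -0.10 to 0.062 for Hist1h2bc, -0.027 to 0.069 for Hist1h1c, -0.10 to 0.42 for Hist1h1d, -0.020 to 0.49 for Hist1h1e, -0.26 to 0.26 for Hist2h2aa2, -0.017 to 0.23 for Hist1h2be, -0.12 to 0.30 for Hist1h4h, -0.41 to 0.13 for Hist2h3c2, -0.15 to 0.27 for Hist2h4 and -0.10 to 0.051 for Firre. The cause was not tested. Depth limits the 48 untested members, which hold at most 193 counts together in a library.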

Other observations

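Gm42743, a long intergenic noncoding RNA annotated over Hist2h2bb on the same strand, was at 1.73 ± 0.243 CPM in the blank controls, 1.796 ± 0.313 in the negative controls and 7.56 ± 1.54 in the Firre libraries (SD, n = 3). Its log2 fold change over the negative controls was 2.06 (SE 0.20, edgeR adjusted p = 2.14e-10), higher in 3 of 3 Firre libraries. Hist2h2bb itself held 10, 15 and 16 counts in the 3 groups, and 100% of its windows lie on exons of other genes, so reads of the pair may have been counted for Gm42743 or set aside as ambiguous. Gm42743 was chosen after its values were seen.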
